A study of Homo sapiens with 2 samples.

Results

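The Notch genes examined here were 3 receptors (NOTCH1, NOTCH2 and NOTCH3), 4 ligands (JAG1, JAG2, DLL1 and DLL4), 2 target genes (HES1 and HEY1) and RBPJ, the DNA-binding factor of the pathway. They were taken by gene symbol, and all 10 were found among the 23368 symbols of the bulk RNA-seq count data. The data came from 2 libraries, labelled as replicates 1 and 2, of SUM159 cells, an established triple-negative breast cancer line of labelled genotype Wt. Both libraries were of attached cells that had become resistant to doxorubicin, a topoisomerase II poison, during long-term exposure to increasing doses, and both cultures received insulin and hydrocortisone in the medium. Treatment-naïve cells were not analysed here, so the values are levels in the resistant cells and carry no fold change against untreated cells. The labels do not say whether each library had its own culture, and p-values between them then measure only the spread of these samples, which may be technical.

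Notch signalling passes between touching cells. A ligand of the Jagged (JAG) or Delta-like (DLL) family on one cell binds a Notch receptor on its neighbour, the receptor is cut by an ADAM protease and then by gamma-secretase, and the freed intracellular part enters the nucleus. There it binds RBPJ, displaces corepressors and recruits a Mastermind coactivator, which switches on genes of transcriptional repressors such as HES1 and HEY1. In the mammary gland the pathway is known for its role in luminal cell fate, and in breast cancer for its link to stem-like cells.

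RBPJ binds DNA at a motif with the core TGGGAA, and the start regions of 3 HES genes are shown here because these genes carry this core at a similar place and yet stood at opposite ends of expression in the resistant cells. Each sequence runs from 250 bases before to 50 bases after the start of the gene in RefSeq on GRCh38.p14, 5′ to 3′ on the strand of the gene, with the core in capitals (TTCCCA where it lies on the other strand). HES1 lies at chr3:194135898-194136197 on the plus strand and holds the core on its own strand at 84 and 70 bases before the start. HES4 lies at chr1:1000048-1000347 on the minus strand and holds it at 76 bases before the start. HES5, at chr1:2530214-2530513 on the minus strand, holds it at 80 bases before the start and, on the other strand, at 224 bases.
HES1: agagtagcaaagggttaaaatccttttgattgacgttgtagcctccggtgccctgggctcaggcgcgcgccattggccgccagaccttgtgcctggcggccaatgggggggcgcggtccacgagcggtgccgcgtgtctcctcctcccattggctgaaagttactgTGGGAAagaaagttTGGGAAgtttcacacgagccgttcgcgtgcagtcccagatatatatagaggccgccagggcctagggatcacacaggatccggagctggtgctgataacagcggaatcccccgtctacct
HES4: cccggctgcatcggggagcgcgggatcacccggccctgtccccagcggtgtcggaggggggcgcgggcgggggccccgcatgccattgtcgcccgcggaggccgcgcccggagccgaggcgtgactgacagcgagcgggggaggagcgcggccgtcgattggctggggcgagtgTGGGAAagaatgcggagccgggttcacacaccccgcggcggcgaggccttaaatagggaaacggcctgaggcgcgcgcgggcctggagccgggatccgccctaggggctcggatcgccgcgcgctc
HES5: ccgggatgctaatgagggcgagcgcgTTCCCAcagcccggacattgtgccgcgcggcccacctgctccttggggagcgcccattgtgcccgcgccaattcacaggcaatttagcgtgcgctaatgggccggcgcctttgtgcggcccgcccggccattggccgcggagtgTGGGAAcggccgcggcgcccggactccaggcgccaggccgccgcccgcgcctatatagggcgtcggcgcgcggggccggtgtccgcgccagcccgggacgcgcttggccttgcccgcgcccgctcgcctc

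In the libraries HES1 had 3155 and 2158 counts and HES4 had 2081 and 1126, whereas HES5 had 0 in both. Letters that match the core are common: searched on both strands, TGGGAA was found in 24.0% of 35116 start regions of the same length, and 3.8% held it at least 2 times. Of the 9 genes among HES1, HES2, HES4, HES5, HES6, HES7, HEY2, HEYL and NRARP, all with a start region in the table, 5 held it, namely HES1, HES4, HES5, HEY2 and HEYL. HEY2, HEYL and HES5 had at most 12 counts in a library, so matches were found in genes of high and of very low counts. Start regions of NOTCH1, NOTCH2, NOTCH3, JAG1, JAG2 and DLL4 held no match, and 1 of the 5 windows listed for RBPJ did. A match of letters is a description of the sequence and not a measured binding site.

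Levels are given as counts per 1000000 counts of the library (CPM). The totals were 23044084 counts in replicate 1 and 17985508 in replicate 2, so that 1 count stands for 0.0434 and 0.0556 CPM, and 3 counts, taken as the floor of detection, for 0.130 and 0.167 CPM. A gene without counts may lie at up to this floor by a limit on its upper side alone, and the upper end of the exact 95% Poisson interval, which has 2 sides, is somewhat higher. These limits and the intervals below cover counting error only, because reads carried no molecular identifiers and may repeat the same molecule. In bulk RNA-seq, fewer cells that express a gene and less of its RNA per cell cannot be told apart. The subtype was checked by its markers: the progesterone receptor gene PGR had 2 counts in replicate 1 and 0 in replicate 2, the estrogen receptor gene ESR1 had 11 and 9, and the mesenchymal gene VIM had 8159 and 6925 CPM. ERBB2, the HER2 gene, had 95.1 and 104 CPM, so its RNA was present, and the growth factor receptor gene EGFR had 48.2 and 244 CPM, far apart between the libraries. Epithelial markers (CDH1 and EPCAM) summed to 0.651 and 1.06 CPM, endothelial markers (PECAM1, CDH5 and KDR) to 1.08 and 1.11 CPM with KDR at 0, and ALB and HBB had no counts. Of the 4 leukocyte markers (PTPRC, CD3D, CD14 and CD79A), 2 reached a mean count of 20 and all summed to 18.0 and 9.67 CPM, most of it CD14 with 15.4 and 7.62 CPM, whereas CD3D had 3 counts in replicate 1 and 0 in replicate 2. A part of other cells in the Notch levels was not tested.

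Of the 10 Notch genes, 9 reached a mean count of 20, the minimum that the methods of the study set for bulk RNA-seq, against 52.8% of all symbols. Their median was 63.5 CPM over all 10 genes, and 1.89 CPM over all symbols. DLL4 alone fell short of the minimum. To compare genes with each other, CPM were divided by the exonic length in kilobases (kb), the union of all exons in GENCODE on GRCh37. On this scale the order of the means ran from HES1 at 62.4 CPM per kb through JAG2, JAG1, NOTCH2, NOTCH3, NOTCH1, RBPJ, DLL1 and HEY1 to DLL4 at 0.0208 CPM per kb. RBPJ has 15311 bp of exons but 5761 bp in its longest transcript, so its place depends on the gene model. Among neighbours in this order, the values of the libraries overlapped between JAG1 and NOTCH2, NOTCH2 and NOTCH3, NOTCH3 and NOTCH1, and RBPJ and DLL1, so these neighbours were not separated beyond the spread between libraries, although within each library NOTCH2 was above NOTCH3 and NOTCH3 above NOTCH1. The median over the 10767 genes with a mean count of at least 20 and a known exonic length was 6.47 CPM per kb.

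**Figure D1:**
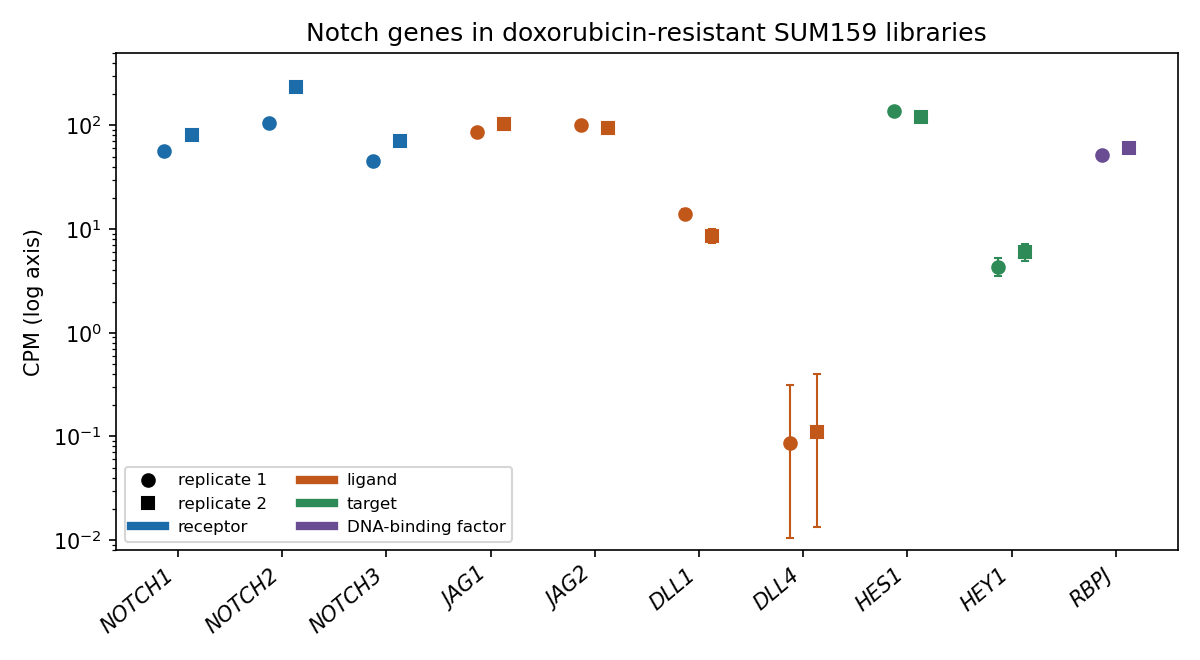
CPM, on a log axis, of the 10 Notch genes in the doxorubicin-resistant libraries, with circles for replicate 1, squares for replicate 2 and bars for the exact 95% Poisson interval of each count. HES1 lies at 137 and 120.0 CPM, DLL4 at 0.0868 and 0.111 CPM, and the libraries lie farthest apart for NOTCH2, at 106 and 233 CPM.

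The receptors were all expressed. NOTCH2, on chromosome 1 of GRCh37 from 120454176 to 120643366 on the minus strand, had 2450 counts in replicate 1 and 4182 in replicate 2, or 106 and 233 CPM. Its level in replicate 2 was more than its level in replicate 1 by 1.13 on the log2 scale, so the mean of 169 ± 89.2 CPM (SD, n = 2) depends on which library is taken. NOTCH1, the receptor most often mutated in T-cell leukemia, lies on chromosome 9 from 139388885 to 139440500 on the minus strand and had 56.4 and 81.7 CPM. NOTCH3, which is known for its role in vascular smooth muscle, lies on chromosome 19 from 15269849 to 15311806 on the minus strand and had 45.6 and 70.2 CPM. All of the receptors were thus higher in replicate 2.

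Per kb, NOTCH2 led the receptors in both libraries. It made up 40.5% of the summed receptor level per kb in replicate 1 and 49.8% in replicate 2, or 45.1% ± 6.62 (SD, n = 2). NOTCH3 made up 28.8% ± 2.89 and NOTCH1 26.0% ± 3.73 (SD, n = 2 each). NOTCH3 exceeded NOTCH1 per kb by 1.08 and 1.15 times in the libraries, but with the length of the longest transcript in place of the union of exons NOTCH1 had the larger mean share, 25.4% against 24.0%, so the order of these receptors was not settled. The ratio of NOTCH2 to NOTCH1 per kb was 1.41 in replicate 1 and 2.13 in replicate 2. NOTCH2NL, a partial copy of NOTCH2 in the human genome, had 12.2 and 10.01 CPM, and reads that match both genes may be lost or misassigned, to an extent that these counts do not measure.

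The remaining receptor gene, NOTCH4, had no counts in either library. It lies in the major histocompatibility complex on chromosome 6, from 32162620 to 32191844. Of its 42 protein-coding neighbours within 500000 bp, 2 reached a mean count of 20 and 23 had no counts in either library, against 52.8% of all symbols that reached this minimum. Low counts were thus common among the neighbours of NOTCH4. Around the receptors that were expressed, the share of such neighbours varied. Around NOTCH2, 3 of 8 neighbours reached this minimum and 5 had no counts, and around NOTCH3 these were 7 and 11 of 23. Around NOTCH1, 17 of 30 neighbours reached it and 4 had no counts. The 0 of NOTCH4 is given here as a count and not as a limit on its expression. The part of the region in the value of NOTCH4 was not tested.

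Among the ligands the Jagged genes dominated. JAG1, on chromosome 20 from 10618332 to 10654647 on the minus strand, had 87.4 and 102 CPM, or 94.9 ± 10.6 CPM (SD, n = 2). JAG2, on chromosome 14 from 105607319 to 105635161 on the minus strand, had 100.3 and 94.8 CPM, or 97.6 ± 3.91 CPM (SD, n = 2). DLL1, the Delta-like ligand best known from somite formation and neural progenitors, lies on chromosome 6 from 170591294 to 170615653 on the minus strand and had 14.0 and 8.62 CPM. DLL4, a ligand of sprouting endothelium on chromosome 15 from 41221538 to 41231271 on the plus strand, had 2 counts in each library, below the limit of 3, with exact 95% Poisson intervals of 0.0105 to 0.314 CPM and 0.0135 to 0.402 CPM.

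Of the ligand level per kb, JAG2 took 54.5% in replicate 1 and 52.7% in replicate 2, JAG1 took 32.7% and 39.2%, and DLL1 took 12.8% and 8.03%. JAG2 exceeded JAG1 per kb by 1.67 and 1.35 times. This order depends on how length is treated. With the length of the longest transcript, JAG2 had 48.5% and 45.7% and JAG1 had 41.1% and 47.9%, so that JAG1 led in replicate 2. JAG1 led there also with the longest coding sequence, at 48.7% against 44.3%, and without a length correction, at 49.7% against 46.0%. In replicate 1 JAG2 led each time. That JAG1 and JAG2 each stood above DLL1, and DLL1 above DLL4, held in both libraries under each of the 4 ways of treating length. The summed CPM of the ligands was 202 in replicate 1 and 206 in replicate 2, and that of the receptors was 208 and 384. These sums were not divided by length, and each receptor gene has more exonic bp than each ligand gene. They therefore compare the libraries within a role, and not receptors with ligands.

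Some of these loci overlap other genes. DLL1 shares 370 bp of exons with FAM120B on the opposite strand, which had 27.1 and 43.9 CPM, JAG1 shares 306 bp with a noncoding RNA on the opposite strand, and JAG2 shares 469 bp with one on the same strand. The strand setting of the read counting was not given in the sources used here, so reads in these overlaps cannot be assigned.

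DLL3, an inhibitory member of the Delta-like family, had 91 and 43 counts, or 3.95 and 2.39 CPM, and reached the minimum. DLK2, a related protein that lacks the motif for Notch activation, had 24.4 and 15.5 CPM. Its paralog DLK1 and the contactins CNTN1 and CNTN6, described as atypical ligands, had at most 2 counts in any library. The ligand genes with a mean count of at least 20 were therefore JAG1, JAG2, DLL1, DLL3 and DLK2.

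**Figure D2:**
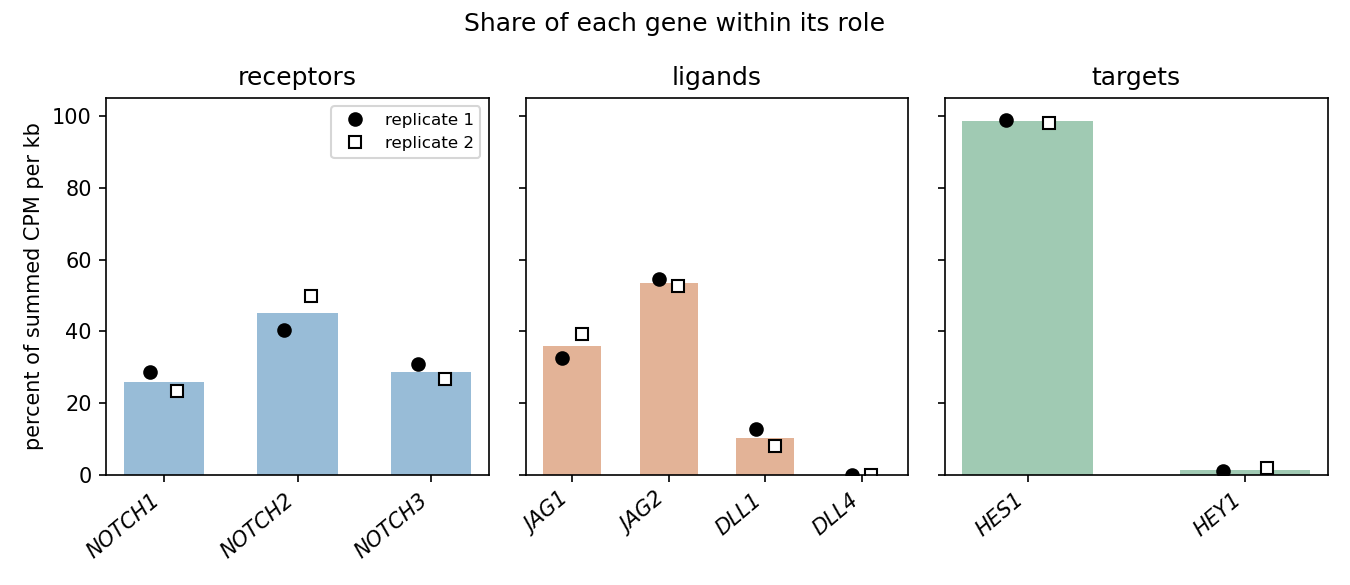
Percent of the summed CPM per kb of exon that each gene takes among the receptors, the ligands and the targets. Bars are means of the 2 libraries, filled circles replicate 1 and open squares replicate 2, and the highest bars are NOTCH2 at 45.1%, JAG2 at 53.6% and HES1 at 98.5%.

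The target genes differed widely in level. HES1, on chromosome 3 of GRCh37 from 193853937 to 193856521 on the plus strand, encodes a helix-loop-helix repressor that also acts on its own promoter, and it had 137 and 120.0 CPM. Its mean of 128 ± 11.97 CPM (SD, n = 2), or 62.4 ± 5.81 CPM per kb, was above that of 94.7% of the genes with a mean count of at least 20 and a known length. HEY1, a repressor related to HES1 that is known from heart and vessel development, lies on chromosome 8 from 80674606 to 80680092 on the minus strand and had 100 and 108 counts. These were 4.34 CPM in replicate 1, with an exact 95% Poisson interval of 3.53 to 5.28, and 6.005 CPM in replicate 2, with an interval of 4.93 to 7.25. Per kb, HES1 exceeded HEY1 by 84.1 and 53.2 times, and it took 98.8% and 98.2% of their summed level. The size of this ratio depends on the gene model, since HEY1 has 5487 bp of exons but 924 coding bp, against 2059 and 840 bp for HES1.

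The other HES and HEY genes examined here formed a similarly split group, in which 3 of 7 reached a mean count of 20, against 52.8% of all symbols. HES4, which humans have and mice lack, had 90.3 and 62.6 CPM, and per kb it stood at 1.21 and 0.961 times the level of HES1. HES6, which opposes HES1, had 20.9 and 15.6 CPM, and HES7, the repressor of the segmentation clock, had 14.1 and 10.2 CPM. HEY2 had 12 and 9 counts, HES2 had 2 and 0, HEYL had 1 and 0, and HES5, a Notch target of neural progenitors, had none.

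RBPJ, on chromosome 4 from 26165077 to 26436753 on the plus strand, had 51.9 and 60.8 CPM. Its mean was 56.3 ± 6.34 CPM (SD, n = 2). Per kb it was lower than HES1 in both libraries, by 19.6 and 14.7 times. The size of this ratio depends on the gene model. RBPJ has 15311 bp of exons but 5761 bp in its longest transcript, against 2059 and 1575 bp for HES1. Without a length correction HES1 had 137 and 120.0 CPM, against the 51.9 and 60.8 CPM of RBPJ. The human genome holds processed pseudogenes of RBPJ, so reads that match them equally well may not have been counted.

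The spread between the libraries was then tested for each gene with edgeR (exact binomial test), adjusted by Benjamini-Hochberg over 13744 genes with at least 10 counts over both libraries. The test asks only whether the libraries differ beyond counting error and says nothing of conditions. Of the 9 Notch genes tested, 8 differed at an adjusted p below 0.05, against 57.7% of all genes tested. Of these 8, 6 were higher in replicate 2, as were 30.1% of all genes, and 2 (DLL1 and HES1) were higher in replicate 1, as were 27.6%. The test finds smaller differences at higher counts, and these shares come from genes of unlike depth. Past a mean count of 20, the median was 69.0 CPM for the Notch genes and 34.1 CPM for all symbols. The median log2 ratio of replicate 2 over replicate 1 was 0.23 over the 9 genes and −0.01 over all genes tested. Differences of this kind were thus common, and a difference of at least 1.5-fold was called for 3 of the Notch genes, NOTCH2, NOTCH3 and DLL1, and for 16.6% of all genes tested.

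NOTCH2 had the largest log2 ratio of the Notch genes, 1.13 (adjusted p = 7.0e-215, edgeR exact binomial test). NOTCH3 followed with 0.62 and NOTCH1 with 0.53. DLL1 was at the other end with −0.70 (adjusted p = 1.22e-06 in the same exact test). HES1 had −0.19, JAG1 0.23, RBPJ 0.23 and HEY1 0.47 (adjusted p = 0.0374 in the same exact test). JAG2 was the tested Notch gene that did not pass, with −0.08 (adjusted p = 0.122 in the same exact test).

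These ratios moved with gene length. Across 11776 genes, the Spearman rho of the log2 ratio was 0.518 with exonic length and −0.279 with the GC content of the longest transcript, as a description over genes of the same 2 libraries, which are not independent replicates. When the genes were divided by exonic length into 10 classes of equal size, HES1, with 2059 bp, fell in the shortest class, where the median ratio was −0.40, and NOTCH1, NOTCH2 and RBPJ, with 12531, 16744 and 15311 bp, fell in the longest, where it was 0.44. Of the 9 Notch genes, 5 lay between the quartiles of their own class, namely NOTCH1, NOTCH3, JAG1, JAG2 and RBPJ. NOTCH2 lay above an upper quartile of 0.82, HEY1 above one of 0.32 and HES1 just above one of −0.20, and DLL1 lay below a lower quartile of −0.31. In GC content, NOTCH2 had 49.4% against 63.3% in NOTCH1 and 63.1% in NOTCH3. JAG1 had 49.6% against 64.1% in JAG2, and HEY1 had 45.05% against 49.97% in HES1. In these comparisons the gene of lower GC content had the higher ratio. Other genes went the other way: DLL1, with 59.5%, had less than JAG2 and yet the lowest ratio of all. RBPJ, with the lowest GC content of the 10 Notch genes at 36.8%, had a ratio of 0.23, below the median of its length class. The part of length and GC content in the differences was not tested.

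**Figure D3:**
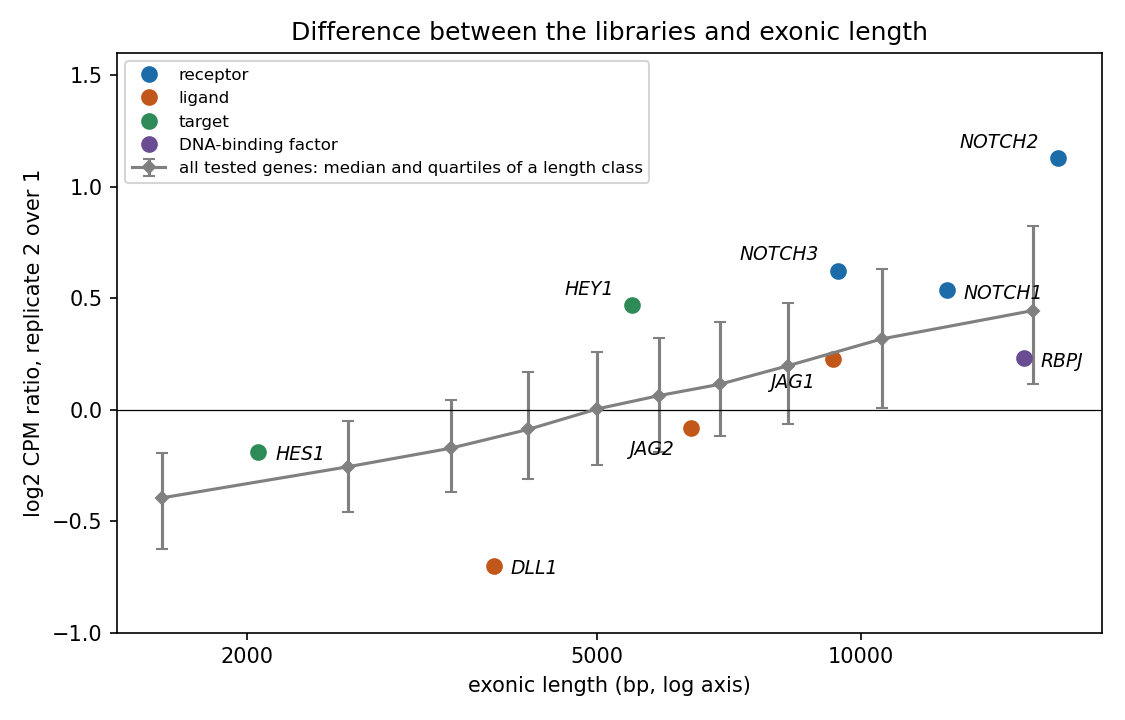
Log2 CPM ratio of replicate 2 over replicate 1 against exonic length in bp, on a log axis. Coloured points are the 9 Notch genes with at least 10 counts, and grey diamonds and bars are the median and quartiles of all tested genes in each of 10 length classes, from −0.40 in the shortest to 0.44 in the longest, with NOTCH2 above its class at 1.13 and DLL1 below its own at −0.70.

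The rest of the pathway was examined through 59 further genes from a list ordered by role. Of these, 50 reached a mean count of 20, or 84.7%, against the 52.8% of all symbols, and their median was 32.5 CPM. The 9 that did not were NOTCH4, DLK1, CNTN1, CNTN6, HES2, HES5, HEY2, HEYL and DTX1, a ubiquitin ligase and Notch target, which had no counts. In the test between the libraries, 20 of the 51 genes tested were higher in replicate 2, against 30.1% of all genes tested, and 20 in replicate 1, against 27.6%. These shares too come from genes of unlike depth, with medians past the minimum of 52.4 CPM in the list and 34.1 CPM over all symbols.

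The proteases that cut the receptor were all present, with 9 of 9 genes past the minimum. FURIN, which cuts the receptor on its way to the surface, had 117 and 107 CPM, and of the proteases that cut it at the surface, ADAM10 had 67.0 and 97.4 CPM and ADAM17 had 25.8 and 39.1 CPM. All 6 genes of gamma-secretase subunits were among them. APH1A was the highest of these per kb, with 40.1 CPM per kb and 156 and 122 CPM, and its paralog APH1B had 4.12 and 3.06 CPM. PSEN2, a catalytic subunit, had 30.3 ± 3.64 CPM, and nicastrin, NCSTN, had 111 ± 0.874 CPM (SD, n = 2 each), with no difference between the libraries detected (adjusted p = 0.784, edgeR exact binomial test).

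Enzymes that add sugars to the receptor also passed the minimum in 6 of 6 cases. POFUT1, which adds the fucose that Notch needs for ligand binding, had 164 and 197 CPM. The Fringe genes, whose products extend that fucose, were lower. RFNG had 27.7 ± 4.33 CPM, LFNG had 4.18 ± 1.51 CPM and MFNG had 1.51 ± 0.564 CPM (SD, n = 2 each). Per kb these were 7.18, 1.22 and 0.498, against 27.2 for POFUT1. On the ligand side, all 4 ubiquitin ligase genes passed the minimum, among them MIB1, which drives ligand endocytosis, with 60.9 and 112 CPM. Per kb, MIB1 had 4.60 and 8.45 and its paralog MIB2 6.15 and 4.91, so that their order differed between the libraries.

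In the nucleus, 8 of 8 coactivator and 7 of 7 corepressor genes reached the minimum. The Mastermind genes MAML1, MAML2 and MAML3 had 89.8 ± 19.4, 21.2 ± 13.8 and 18.8 ± 5.38 CPM (SD, n = 2 each). SNW1, a splicing factor that also binds the Notch complex, had 125 and 136 CPM, and at 53.5 CPM per kb it was the highest coactivator gene on that scale. Of the coactivator genes 6 were higher in replicate 2 and none in replicate 1, against 30.1% and 27.6% of all genes tested, and among the 6 were the acetyltransferase EP300 with 36.0 and 102 CPM and MAML2 with 11.5 and 31.0 CPM. Of the corepressors, SPEN, the scaffold that binds RBPJ in the absence of Notch, had 59.8 and 189 CPM and lies in the longest class of genes. Its log2 ratio of 1.66 was above that of 97.45% of this class, whose median was 0.44. EP300 and MAML2 stood above 98.04% and 99.06% of their own length classes. The deacetylase HDAC1 was the highest corepressor per kb, at 50.7 CPM per kb, with 220 and 182 CPM.

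Genes of Notch inhibitors and of Notch turnover reached a mean count of 20 in 8 of 9 cases. NUMB, which is handed to one daughter cell in asymmetric divisions and blocks Notch there, had 115 and 138 CPM. NRARP, a Notch target that destabilizes the intracellular domain, had 36.4 and 39.0 CPM, and its mean of 14.3 CPM per kb was the highest of this group. Per kb its libraries, at 13.8 and 14.8, overlapped those of NUMB, at 12.1 and 14.4. NUMB has 9546 bp of exons but 5172 bp in its longest transcript, so this order also depends on the gene model. FBXW7, which marks that domain for degradation, had 18.9 and 16.7 CPM. Of the target genes that many other pathways also control, CCND1 had 712 and 881 CPM, MYC had 396 and 364 CPM and SNAI2 had 65.9 and 72.5 CPM. These levels cannot be assigned to Notch from the present data.

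**Figure D4:**
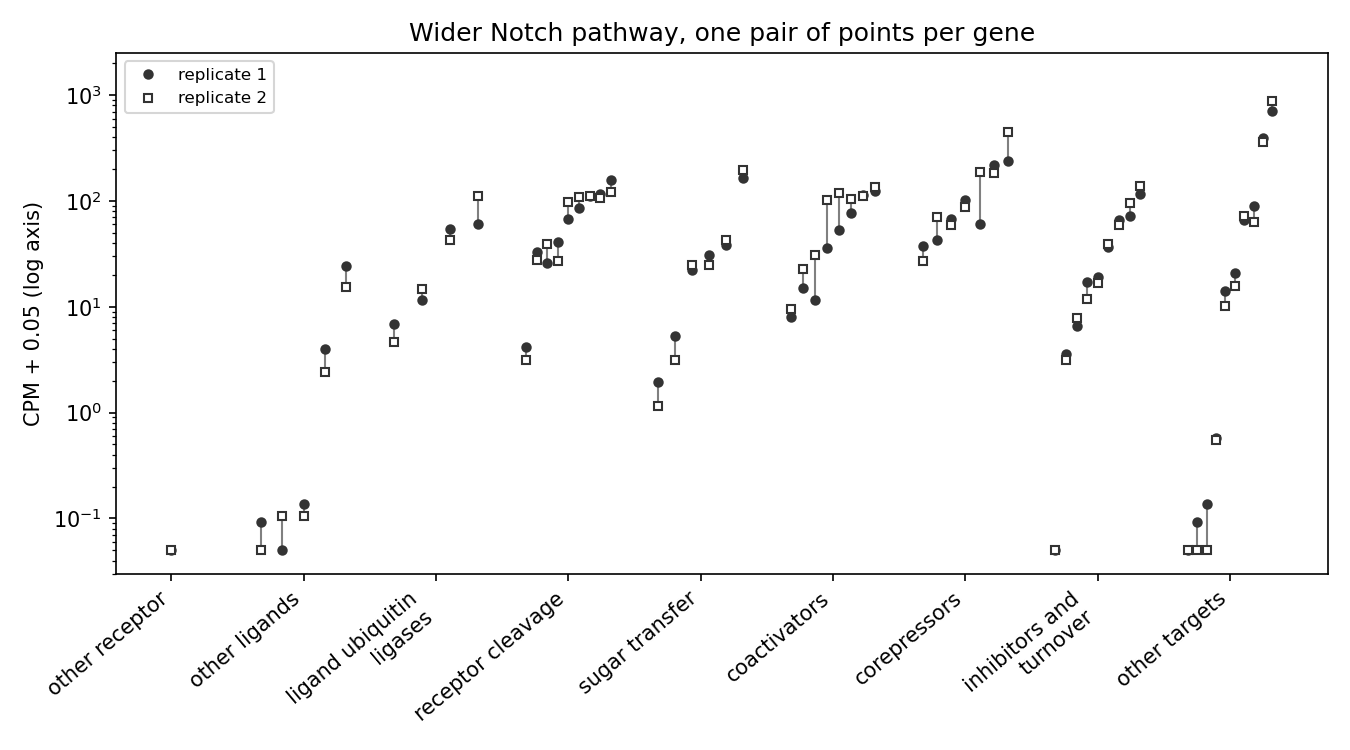
CPM plus 0.05, on a log axis, of 59 further Notch pathway genes by role, with filled circles for replicate 1, open squares for replicate 2 and a line joining the values of each gene. The 9 genes below a mean count of 20, such as NOTCH4, DTX1 and HES5, lie at the bottom, and CCND1 lies highest at 712 and 881 CPM.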

How the data were processed

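Bulk RNA-seq of doxorubicin-resistant SUM159 cells was analysed in 2 libraries of 1 condition. The deposited values are whole-number counts per gene, named by symbol, which, per the methods of the study and the submitters' processing notes, came from reads mapped to hg19 with HISAT2 and counted within genes by HTSeq. The notes also list FastQC and deepTools. Tool versions, the annotation and the use of strand in counting were not stated. The kit and RNA selection named in the labels were a directional NEBNext library of polyadenylated RNA.

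CPM were scaled to the sum of counts over genes in each library and were averaged over 2 libraries with their SD. GENCODE on GRCh37, the same assembly as hg19, gave positions and exonic lengths for 19311 symbols (82.6%) and all 10 Notch genes. Of the wider list, NEURL1, EOGT and RITA1 were found under older symbols. The libraries were compared with the binomial test of edgeR on genes whose counts in both summed to at least 10, and the code was tested on simulated data. With 1 condition, no test between conditions was possible, and with 2 libraries each gene has 1 ratio, so no genes of similar pattern were sought.

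The Notch genes and the wider list were chosen with earlier results of these data known. All 10 Notch genes are named, and of the wider list the paralogs, the genes below a mean count of 20 and the highest of each role. The others named there were chosen after their values were seen. A few genes of the wider list enter its counts and are not reported here by name. Alternatives covered the scaling (TMM and DESeq2 size factors), the minimum count, the length, the filter, the test and each library left out. Python 3.11.15, numpy 2.4.6, pandas 2.3.3, scipy 1.17.1, matplotlib 3.10.9, R 4.3.3, edgeR 4.0.16 and DESeq2 1.42.0 were used.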

Additional observations from a re-analysis of the deposited data

How the results depend on the processing

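The count of Notch genes past the minimum, 9, was the same at a minimum mean count of 10 or 100 and in each library alone, and that of the wider pathway was 51, 45 and 50. The mean CPM of each Notch gene moved by less than 1 SD with TMM scaling or DESeq2 size factors. The 8 differences between the libraries stayed 8 with TMM library sizes, without the filter on low counts and with Fisher's exact test, and were 3 when a difference of at least 1.5-fold was also asked, by construction. Shares within a role changed with the gene length, and scaling of a library cancels from them. With the longest coding sequence the share of NOTCH2 among the receptors was 55.5%, that of JAG2 among the ligands 45.7% and that of HES1 among the targets 96.4%. Without a length correction they were 55.8%, 47.9% and 96.1%. With the longest transcript the share of JAG2 was 47.1%. Under each of these alternatives JAG1 stood above JAG2 in replicate 2 and below it in replicate 1. In each library alone, NOTCH2 took 40.5% to 49.8%, JAG2 52.7% to 54.5% and HES1 98.2% to 98.8%. Without replicate 1 NOTCH2 stood at 233 CPM and without replicate 2 at 106 CPM, and DLL1 at 8.62 and 14.0 CPM. Depth limits the values of NOTCH4, DLL4, HES5 and other genes near 0 counts. For NOTCH4 the part of its region, where low counts were common, was not tested. No paired analysis was possible because there is 1 condition.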
